A study of Mus musculus with 3 samples.

Results

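The insulin and insulin-like growth factor (IGF) genes described here are 10 mouse genes: the ligands Igf1 and Igf2, the receptors Igf1r and Insr, the receptor substrates Irs1 and Irs2, and the IGF binding protein genes Igfbp3, Igfbp4, Igfbp5 and Igfbp7. Open chromatin was mapped by ATAC-seq, which reads where a transposase can cut and tag DNA, and each position of strongest signal in an accessible region is called a summit. A summit was given to one of the 10 genes when the nearest end of any protein-coding gene was an end of that gene and lay within 50 kb. This took 178 of 167038 summits, of which 129849 lay within 50 kb of some gene end. The genes were chosen by symbol after earlier results of the same lists were known, among them the numbers of one-library regions near Irs2. Counts of regions per library are therefore a description, and no test is given.

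The study concerns heterotopic ossification, in which bone forms in soft tissue. It holds 3 libraries from mouse cells labelled as mesenchymal stem cells, 1 per group: uninjured cells at day 0, cells at day 7 after injury with immobilization, and cells at day 7 after injury without immobilization. The labels give no strain, genotype, age, kind of injury, body site or sort, and no number of animals. With 1 library per group, differences between groups could not be set against the spread of replicates, and p-values were not computed.

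The deposited lists held 51722 summits at day 0, 67404 in the immobilized and 47912 in the non-immobilized library, from 143818952 to 176119937 read pairs, of which 42.0% to 60.2% were duplicates. The day 0 library had the most read pairs and the largest share of duplicates, and the non-immobilized library had the shortest list. Pairs estimated to remain without duplicates and unaligned reads were fewest at day 0 and most in the non-immobilized library. The shortest list thus came from the library with the most such pairs. Because the lists differed in length, each was reduced to its 47912 best-scoring summits for comparisons between libraries, which removed 3810 at day 0, 19492 in the immobilized library and 0 in the non-immobilized library. This left lowest scores of 3.996 at day 0, 6.61 in the immobilized and 1.33 in the non-immobilized library, so the reduced lists share a length and not a score cutoff. In the lists as deposited the lowest scores were 1.42, 1.78 and 1.33. Pair counts are given for both kinds of list. Among markers fixed as lists, all 10 mesenchymal genes had a summit in every library (61, 80 and 55 summits at day 0, immobilized and non-immobilized). So did all 6 smooth muscle and pericyte genes, and all 6 skeletal muscle genes except Myog in the immobilized library. Leukocyte markers had 3, 9 and 6 summits, with Lyz2 at 0 in all, and endothelial markers had 16, 36 and 39. Keratinocyte markers had 7, 48 and 9, with Krt5 and Krt14 at 0 except in the immobilized library, smooth muscle and pericyte markers 32, 29 and 20, skeletal muscle markers 28, 27 and 18, and adipocyte markers 17, 26 and 19. The part of these other cell types in the counts below was not tested.

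IGF1 and IGF2 are secreted ligands that act mainly through the IGF1 receptor, a tyrosine kinase closely related to the insulin receptor. Both receptors phosphorylate the docking proteins IRS1 and IRS2, which recruit phosphoinositide 3-kinase and thereby activate AKT. IGF binding proteins hold the ligands in the circulation and in the matrix and limit or prolong their access to receptors. In the skeleton, IGF1 promotes the growth and differentiation of bone-forming cells and is stored in bone matrix together with binding proteins.

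Promoter sequences of 5 members are shown first, because the members differed in whether their start held a strong summit. Each is the 250 bases before the RefSeq transcription start (GRCm38.p6, the assembly of mm10), 5′ to 3′ on the strand of the gene, and capitals mark matches to the motifs given after them.

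Irs2 (chr8:11008930-11009179, minus strand): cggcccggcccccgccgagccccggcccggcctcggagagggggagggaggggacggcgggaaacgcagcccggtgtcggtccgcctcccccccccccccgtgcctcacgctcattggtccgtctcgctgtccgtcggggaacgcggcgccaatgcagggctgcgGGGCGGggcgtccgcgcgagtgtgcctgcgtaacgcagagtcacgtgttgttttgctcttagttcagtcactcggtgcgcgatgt

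Irs1 (chr1:82291440-82291689, minus strand): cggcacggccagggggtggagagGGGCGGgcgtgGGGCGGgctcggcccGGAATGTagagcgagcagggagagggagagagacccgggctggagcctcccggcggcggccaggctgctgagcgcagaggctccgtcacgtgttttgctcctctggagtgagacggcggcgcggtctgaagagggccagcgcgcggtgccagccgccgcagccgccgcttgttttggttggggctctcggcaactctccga

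Igf1r (chr7:67952007-67952256, plus strand): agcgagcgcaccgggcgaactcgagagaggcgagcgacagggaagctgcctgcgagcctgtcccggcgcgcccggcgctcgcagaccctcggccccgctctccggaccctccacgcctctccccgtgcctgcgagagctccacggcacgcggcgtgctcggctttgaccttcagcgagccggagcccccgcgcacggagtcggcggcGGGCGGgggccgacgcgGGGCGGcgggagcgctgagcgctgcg

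Igfbp7 (chr5:77408046-77408295, minus strand): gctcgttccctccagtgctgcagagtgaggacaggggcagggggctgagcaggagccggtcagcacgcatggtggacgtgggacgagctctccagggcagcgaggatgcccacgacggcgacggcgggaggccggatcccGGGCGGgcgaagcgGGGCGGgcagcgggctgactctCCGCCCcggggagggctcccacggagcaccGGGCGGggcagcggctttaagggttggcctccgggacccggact

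Igfbp5 (chr1:72874866-72875115, minus strand): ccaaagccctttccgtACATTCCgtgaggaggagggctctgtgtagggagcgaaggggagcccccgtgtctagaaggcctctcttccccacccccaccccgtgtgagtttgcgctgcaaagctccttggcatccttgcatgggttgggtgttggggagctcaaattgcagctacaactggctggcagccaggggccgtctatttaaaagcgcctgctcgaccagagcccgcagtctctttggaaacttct

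The first 4 of these windows were rich in G and C: 72.8% in Irs2, 72.4% in Irs1, 77.6% in Igf1r and 74.0% in Igfbp7, against a median of 56.0% over 20085 windows of protein-coding genes. The Igfbp5 window held 58.8%. Windows reached by summits of all 3 libraries had a median of 62%, and those reached by none 47.6%. High shares also occurred without a strong summit. The Igfbp3 window held 73.2% and was reached by day 7 summits alone, at ranks of 33.6% immobilized and 46.2% non-immobilized. The day 0 summit of the same region, at a rank of 52.6%, lay farther past the start. The Igf2 window at chr7:142658805-142659054 held 68.8% and was reached by no summit. RefSeq gave 12 windows for 9 of the 10 members. The GC box GGGCGG occurred once before Irs2, at 2 places before Irs1 and Igf1r and at 4 before Igfbp7. It also occurred in 2 of the Igf2 windows, so that 6 of the 12 member windows held it, against 43.4% of all windows. No Igf2 window was reached by summits of all 3 libraries, and the Igf1r window was reached at day 0 and non-immobilized only. The Igfbp4 window, with 69.2% G and C and no GC box, was reached by all 3 libraries. The TEAD motif ACATTCC occurred before Irs1 and Igfbp5, against 2.87% of all windows. Among the windows not shown, the AP-1 motif TGANTCA and the E-box CAGCTG occurred once each, both before Igf1, and the RUNX motif TGTGGTT once, before Igfbp3, against 6.18%, 12.2% and 3.84% of all windows. The forkhead motif TGTTTAC (2.64% of all windows), the C/EBP motif TTGCNNAA (9.19%) and the EBF motif (0.846%) matched in none of the 12. Both strands were searched, and a match describes the letters, not a bound site.

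Irs2 had the most summits of the 10 genes: 15 at day 0, 16 in the immobilized and 7 in the non-immobilized library. Next came Igfbp5 with 11, 8 and 4, Igf1 with 9, 10 and 6, Igfbp7 with 7, 9 and 5, and Igf1r with 7, 7 and 6 in the same order. Irs1 had 4, 4 and 3 summits, Igfbp4 had 4, 5 and 5, Igf2 had 3, 5 and 1, Igfbp3 had 3, 4 and 3, and Insr had 2, 2 and 3. The non-immobilized library had the lowest number at 7 of these genes and the highest at Insr alone. Summed over the genes there were 65, 70 and 43 summits, or 12.6, 10.4 and 8.97 per 10000 of each list. Without Irs2 the rates were 9.67, 8.01 and 7.51 per 10000, in the same order of libraries.

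**Figure D1:**
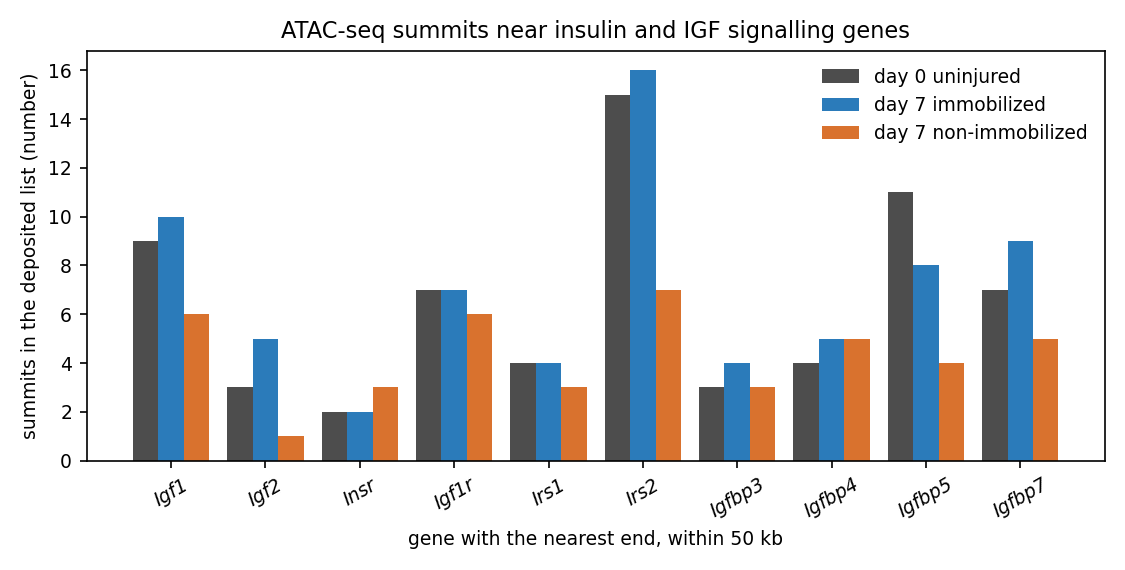
Number of deposited summits assigned to each gene (vertical axis) for the 10 genes (horizontal axis), 1 bar per library, with no error bars because each group is 1 library. Irs2 stands highest with 15, 16 and 7 summits, and the non-immobilized bar of Igf2 is the lowest at 1.

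These summits lay farther from gene ends than most. Within 1 kb of an end were 15.4% of the members' summits at day 0, 15.7% in the immobilized and 18.6% in the non-immobilized library, against 31.8%, 26.7% and 33.3% of all summits within 50 kb. Summits were also ranked by the authors' score within their own list, from 0% for the highest score to 100% for the lowest. The members' median rank was 67.3% at day 0, 56.5% in the immobilized and 46.8% in the non-immobilized library, against 45.2%, 46.1% and 45.6% for all. At day 0 the members' median summit was thus weaker than that of all summits. Still, 26 of the 65 member summits (40%, against 54.7% of all) ranked in the better 50% of that list. Ranks from lists of different lengths show no change between libraries, and below they only place a summit within its own list.

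Windows of 250 bp on each side of the summits were merged across libraries into regions, and a region counted as called in each library that had a summit in it. The deposited lists gave 87 regions for the 10 genes, of 59514 within 50 kb of a gene end. Of the 87, 30 were called in all 3 libraries (34.5%, against 45.4% of all regions). Day 0 alone had 17 (19.5%, against 9.31%), and day 0 with the immobilized library had 16 (18.4%, against 8.03%). The immobilized library alone had 14 (16.1%, against 20.8%), both day 7 libraries 6 (6.90%, against 9.48%), the non-immobilized library alone 2 (2.30%, against 5.14%), and day 0 with the non-immobilized library 2 (2.30%, against 1.82%). All 3 classes that held day 0 and lacked a day 7 library had a larger share here than among all regions, the last of them on 2 regions.

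**Figure D2:**
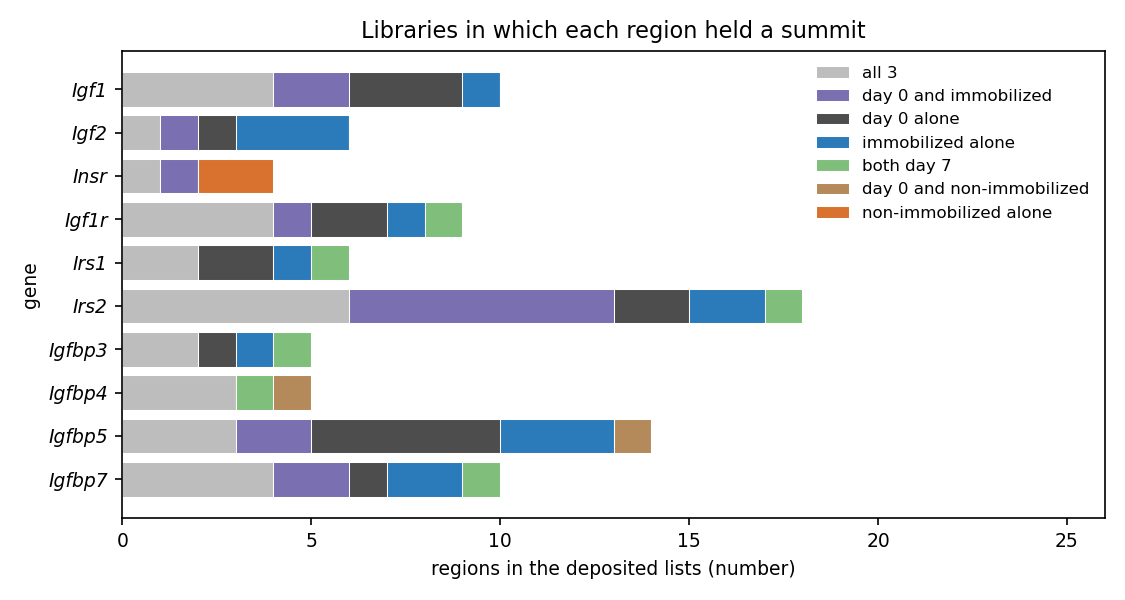
Number of regions in the deposited lists (horizontal axis) for each gene (vertical axis), coloured by the libraries in which the region held a summit. Of the 18 Irs2 regions, 7 were shared by day 0 and the immobilized library and absent from the non-immobilized one, and 6 were called in all 3.

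Day 0 and the non-immobilized library were compared over the 68 member regions that either reduced list held. Day 0 alone held 28 of them, the non-immobilized library alone 10, and 30 were shared. The day 0 share was 41.2% (exact 95% binomial interval 29.4% to 53.8%), against 19.3% of all regions in this pair, and the non-immobilized share was 14.7% (7.28% to 25.4%), against 20.8%. These intervals cover counting error only, and regions near the same gene share their source. Leaving out Irs2 left 19 day 0 regions and 9 non-immobilized ones of 52, a day 0 share of 36.5%. In the lists as deposited the counts were 33, 8 and 32 of 73, with shares of 45.2% and 11% against 21.9% and 18.5% of all regions. Day 0 alone held more regions at 6 genes (Irs2 9 against 1, Igfbp5 5 against 1, Igf1 4 against 0, Igfbp7 3 against 1, Igf2 2 against 0 and Igf1r 2 against 1). The reverse held at Insr with 1 against 2, Igfbp3 with 1 against 2 and Igfbp4 with 0 against 1, and Irs1 had 1 each. These differences per gene shrank with stricter settings: non-immobilized minus day 0 at Irs2 went from -8 to -1 with the 23956 best summits of each list, to -1 within 10 kb and to -4 by the nearest transcription start. At Igf1 it went from -4 to 0 with the best summits and to -2 within 10 kb, and at Igfbp5 from -4 to -2 and -1. Some marker lists moved in the same direction in this pair and others did not. Day 0 alone held 42.4% of the regions near smooth muscle and pericyte markers, 37.9% near skeletal muscle markers and 26.1% near mesenchymal markers, whereas it held 7.32% near endothelial, 14.3% near adipocyte and 0% near leukocyte and keratinocyte markers. The values of 0% rest on few regions. Leukocyte markers had 3 in the non-immobilized library alone and 3 shared, and keratinocyte markers 4 and 5. Their part in the members' counts was not tested.

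Day 0 and the immobilized library gave 23 regions at day 0 alone, 6 in the immobilized library alone and 35 in both, of 64. The day 0 share was 35.9% (24.3% to 48.9%), against 18.9% of all regions, and the immobilized share 9.38% (3.52% to 19.3%), against 21.6%. Without Irs2 the counts were 16 and 4 of 47. Near smooth muscle and pericyte markers the day 0 share was 36.7%, near skeletal muscle markers 34.5% and near mesenchymal markers 30.1%. It was 20.8% near adipocyte, 20% near leukocyte, 15.4% near endothelial and 0% near keratinocyte markers. The leukocyte share rests on 1 region of day 0 alone, 2 of the immobilized library alone and 2 shared. The part of these cell types was not tested. This pair depended on list length. The immobilized list was reduced at its 71.1% rank, and 42 of its 70 member summits stayed. In the lists as deposited, day 0 alone held 19 regions, the immobilized library alone 20, and both held 46 of 85. The shares were then 22.4% and 23.5%, against 11.7% and 32% of all regions. When a day 0 region was counted only if the whole deposited immobilized list lacked it, 13 remained in place of 23. At Irs2 the counts of day 0 alone and immobilized alone were 7 and 2 in the reduced lists, and the difference of immobilized minus day 0 turned from -5 to 1 in the deposited lists.

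The 2 day 7 libraries shared 32 of 49 regions. The non-immobilized library alone held 8, a share of 16.3% (7.32% to 29.7%) against 17.1% of all regions, and the immobilized library alone held 9, a share of 18.4% (8.76% to 32.0%) against 18.3%. Both shares lay near those of all regions. In the lists as deposited the non-immobilized library alone held 4 and the immobilized library alone 30 of 70, shares of 5.71% and 42.9% against 7.68% and 31.8%. Irs2 gave 9 of those 30, and without it the immobilized share was 38.9%. The pairs share libraries: day 0 enters 2 of them, so the day 0 shares in both are not separate measurements.

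**Figure D3:**
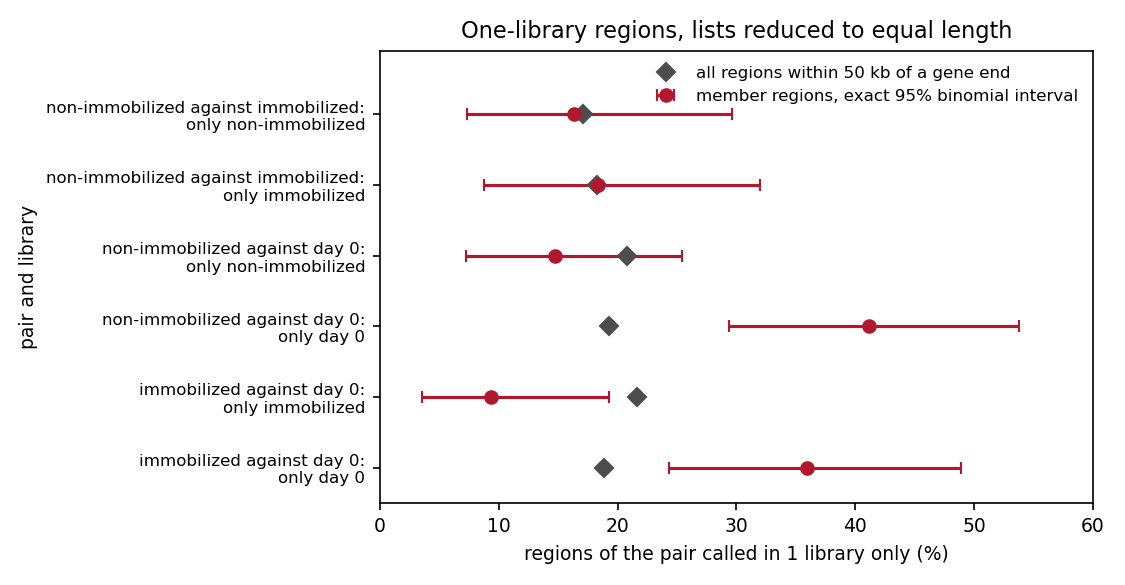
Share of the regions of each pair called in 1 library only (horizontal axis, %), with lists reduced to equal length, for the members (circles, with exact 95% binomial intervals that cover counting error only) and for the regions of all genes at the same limit (diamonds). The members' day 0 shares, 41.2% and 35.9%, lie to the right of 19.3% and 18.9% for all regions, and the shares of the day 7 pair lie close to theirs.

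Distance from genes moved with these counts. Among regions more than 1 kb from a gene end, day 0 alone held 27 of 59 against the non-immobilized library (45.8%, against 24.2% of all such regions) and 22 of 56 against the immobilized one (39.3%, against 23.1%). Within 1 kb of an end it held 1 of 9 (11.1%, against 7.25%) and 1 of 8 (12.5%, against 8.35%), so day 0 shares near gene ends were lower among all regions as well. The strength of the day 0 summits moved with them too. In the deposited lists the members had 65 regions at day 0, and 33 of them (50.8%, against 26.9% of all day 0 regions) had no non-immobilized summit. The median day 0 rank was 83.4% for those 33 and 36.4% for the 32 that were kept. From rank 0% to 25% of the day 0 list, 0 of 13 member regions were without a non-immobilized summit, against 1.04% of all. From rank 25% to 50% it was 4 of 13 (30.8%, against 13.1%), from 50% to 75% it was 9 of 13 (69.2%, against 44.2%), and beyond 75% it was 20 of 26 (76.9%, against 63.0%). In this pair members lay above all regions in the 3 weaker bands, on 13 to 26 regions each. Most of the regions without a non-immobilized summit were weak at day 0. Of the 33, 16 were called in the immobilized library (48.5%, against 46.3% of all such regions). The same bands were read for absence of an immobilized summit. From rank 0% to 25% it was 1 of 13 member regions (7.69%, against 1.05%), and from 25% to 50% it was 0 of 13 (against 6.47%). From 50% to 75% it was 3 of 13 (23.1%, against 25.8%), and beyond 75% it was 15 of 26 (57.7%, against 45.1%). In that pair members thus lay above all regions in the first and last bands and below them in the bands between. The bands between had 0 and 3 member regions without an immobilized summit, too few to read as a difference.

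Irs2, which encodes a docking protein of the insulin and IGF1 receptors, lies at chr8:10984681-11008929 and had 18 regions in the deposited lists. Of 15513 genes with a region, 1.17% had as many, and the median gene had 3. Its promoter region, chr8:11008834-11009334, was among the strongest of the members in all 3 libraries: the summit fell at the same base, 155 bp before the start and inside the promoter sequence printed above, with ranks of 7.34% at day 0, 6.20% in the immobilized and 6.28% in the non-immobilized library. The authors' scores there were 61.2, 64.6 and 58. The Irs2 promoter thus held a strong summit in each library, and the regions that differed lay outside this promoter region. Among them was chr8:11007917-11008417, 0.762 kb inside the start, called in the immobilized library alone at a rank of 97.4%.

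The other Irs2 regions lay mostly past its far end. Of the 12 regions on that side, 11 were called at day 0, 10 in the immobilized and 5 in the non-immobilized library. Inside the gene were 4 regions, of which 2 were called at day 0, 4 in the immobilized and 1 in the non-immobilized library, and 2 before the start, called in 2, 2 and 1. The best-ranked region past the end, chr8:10945925-10946522, lay 38.4 kb from it and was called in all 3 libraries at ranks of 21.6%, 14.1% and 22.2%. A region 1.76 kb inside the gene, chr8:11006919-11007470, was also in all 3, at 24.8%, 40.3% and 51.7%. The strongest Irs2 regions were thus common to the libraries.

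The 9 Irs2 regions called at day 0 and not in the non-immobilized library were weaker, with day 0 ranks from 67.3% to 85.2%. The immobilized library held a summit in 7 of them. At chr8:10953644-10954148, 30.8 kb past the end, the ranks were 85.2% at day 0 and 37.9% immobilized. At chr8:11044612-11045192, 35.9 kb before the start, they were 83.4% and 44.0%, and at chr8:10965334-10965960, 19.0 kb past the end, 84.5% and 62.7%. These 3 were the ones that stayed in the reduced immobilized list. At chr8:10935230-10935738 (49.2 kb past the end) the ranks were 83.4% and 75.3%, at chr8:10952491-10952992 (31.9 kb past it) 67.3% and 75.3%, at chr8:10961874-10962398 (22.5 kb past it) 71.6% and 82.0%, and at chr8:10990656-10991592 inside the gene 69.6% and 77.4%. Day 0 alone held chr8:10943563-10944063 at 69.5% and chr8:10980879-10981379 at 83.6%. The one region in the opposite direction, chr8:10978266-10978770, was called in both day 7 libraries, at 56.5% immobilized and 97.0% non-immobilized. The immobilized library alone held chr8:10993572-10994072 inside the gene at a rank of 41.2% and chr8:11007917-11008417 near the start at 97.4%.

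Irs1, the related docking protein gene at chr1:82233105-82291439, had 6 regions, far fewer than Irs2 over a similar span of sequence nearest to it (121 kb against 124 kb). Its 2 strong regions were called in every library. The promoter region chr1:82290964-82291924 ranked at 9.46% at day 0, 8.0% immobilized and 10.8% non-immobilized, and chr1:82283143-82283653, 8.05 kb inside the gene, at 9.70%, 4.19% and 8.78%. The 4 remaining regions lay past its far end: 2 in day 0 alone at 81.8% and 95%, 1 in the immobilized library alone at 83.0%, and chr1:82189408-82190009, 43.4 kb from the gene, in both day 7 libraries at 55.6% and 57.0%.

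**Figure D4:**
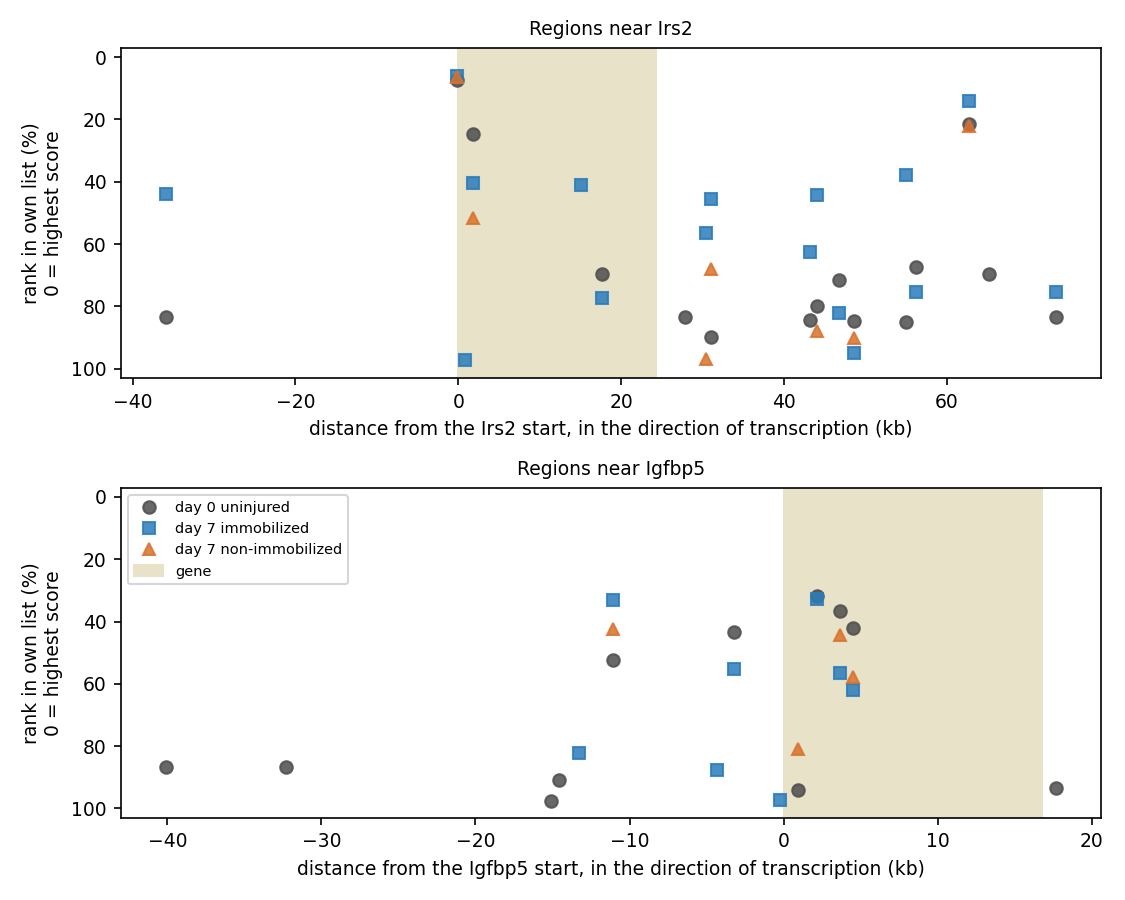
Regions near Irs2 (upper panel) and Igfbp5 (lower panel) by distance from the gene start in kb (horizontal axis) and rank in the library's own list in % (vertical axis, 0 at the top being the highest score), with 1 symbol per library and the gene shaded. At Irs2 all 3 symbols meet near the start at ranks of 6.20% to 7.34%, and past the gene the non-immobilized symbols are fewer; at Igfbp5 the start holds a single weak symbol.

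The receptor gene Igf1r, at chr7:67952257-68233668, had 9 regions within 50 kb of an end. Its start region chr7:67951500-67952058, with summits 449 to 507 bp before the start, ranked at 12.2%, 12.5% and 10.7%, and chr7:67952793-67953339, 0.832 kb inside, at 36.0%, 26.9% and 36.4%. Another shared region, chr7:67961842-67962352, lay 9.85 kb inside, at 35.0%, 39.6% and 41.1%. Near the far end, chr7:68223185-68223751 was shared at 23.3%, 48.7% and 59.4%, while chr7:68215549-68216073 was called at day 0 (45.5%) and immobilized (62.7%) and not in the non-immobilized library. The immobilized library alone held chr7:68233800-68234300, 0.382 kb past the end, at 98.7%. The gene is 281 kb long, so the 50 kb limit left out its middle, where 19 more regions lay: 13 were called at day 0, 15 in the immobilized and 10 in the non-immobilized library, and 7 in all 3. The strongest of them, chr7:68128934-68129551, ranked at 4.81%, 7.44% and 4.92%, ahead of the promoter in every library.

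Insr, the insulin receptor gene at chr8:3150922-3279649, had 4 regions within the limit, the fewest of the members, and was 1 of 3 genes with more regions in the non-immobilized library than at day 0 in the reduced lists. The region at its upper end, chr8:3279315-3279854, was called in all 3 libraries, 47 bp from the end, at 11.7%, 6.12% and 14.4%. Day 0 and the immobilized library held chr8:3237323-3237834 at 46.6% and 50.9%. The non-immobilized library alone held chr8:3299330-3299830 outside the gene at 54.4% and chr8:3260310-3260810 inside it at 92.6%. Beyond the limit, in the middle of the gene, lay 4 more regions. One of these, chr8:3220928-3221436, 58.5 kb from the nearer end, had ranks of 1.65%, 2.34% and 4.13%, the strongest in each library of any region described here.

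**Figure D5:**
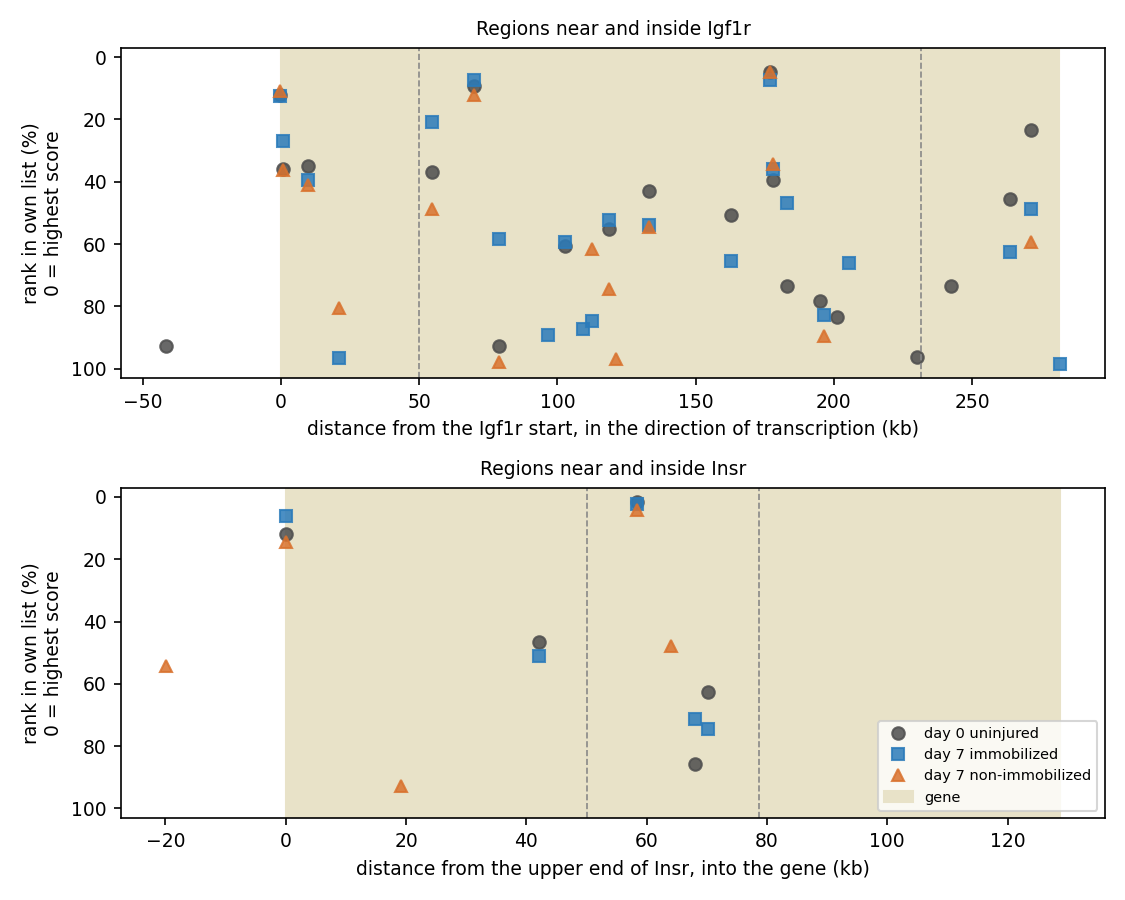
Regions near and inside Igf1r (upper panel, distance from the start in kb) and Insr (lower panel, distance from its upper end in kb) against rank in the library's own list in % (vertical axis, 0 at the top). Dashed lines lie 50 kb inside each gene end, and regions between them were not assigned by the 50 kb rule; the strongest symbols of both genes, at ranks of 4.81% to 7.44% and 1.65% to 4.13%, lie between them.

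The ligand gene Igf1, at chr10:87858265-87937047, had 10 regions, of which 9 were called at day 0, 7 in the immobilized and 4 in the non-immobilized library. The 4 shared regions held all of the non-immobilized ones. Those were chr10:87901869-87902763 (24.6%, 22.0% and 25.1%) and chr10:87927219-87927836 (22.3%, 25.3% and 35.5%) inside the gene, chr10:87960115-87960677 (22.6%, 19.1% and 45.7%) 23.3 kb past its end, and chr10:87860010-87861305 (62.9%, 55.4% and 63.5%) 2.49 kb inside. The last of these covers the RefSeq transcription start in the promoter table, which lies inside the annotated gene. The summits nearest to that start lay at -356 bp in the immobilized and at -56 bp in the non-immobilized library, and farther before it at day 0. At the outer annotated end of the gene, chr10:87858776-87859276 was called at day 0 alone, at 56.0%. The immobilized library alone held chr10:87879987-87880794 at 46.0%. Regions near the start also lie within the lncRNA gene Igf1os, which overlaps it, so they cannot be assigned to one of the 2 by position.

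Igf2, the imprinted gene of the second ligand at chr7:142650768-142666816, had 6 regions and a single one in the non-immobilized library. That region, chr7:142659166-142659725 inside the gene, was called in all 3 libraries at 39.9%, 30.6% and 55.3%. Of 4 regions past the end, 2 were called at day 0, 3 in the immobilized and 0 in the non-immobilized library, with ranks of 62.8% or weaker. Of these, 2 lie within the lncRNA gene Gm33148. No region lay within 1 kb of either end of Igf2, and of its 4 RefSeq start windows 3 held no summit and 1 held an immobilized summit at 86.9%. The region shared by all 3 libraries nevertheless lay within 1 kb before the RefSeq start at chr7:142658804. Its summits ran from chr7:142659416 to chr7:142659475, outside the start window.

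Igfbp5, whose product binds IGFs in bone matrix, had 14 regions around chr1:72858065-72874865, of which 11 were called at day 0, 8 in the immobilized and 4 in the non-immobilized library. It had 20.1 regions per 100 kb of nearest sequence, the most of the 10 genes. In contrast to Irs2, its start held no strong summit: chr1:72874860-72875360, 245 bp before the start, was called in the immobilized library alone at 97.2%. The best-ranked region, chr1:72872446-72872963, lay 2.17 kb inside the gene and was called at day 0 (31.7%) and immobilized (32.8%) and not in the non-immobilized library. The same libraries held chr1:72877809-72878320, 3.19 kb before the start, at 43.3% and 55.2%. Regions in all 3 were chr1:72870985-72871513 (36.8%, 56.4% and 44.3%) and chr1:72870084-72870668 (42.1%, 62.0% and 57.8%) inside the gene and chr1:72885622-72886273 (52.4%, 33.1% and 42.5%) 11.1 kb before it. Of the 9 regions before the start, 6 were called at day 0, 5 in the immobilized and 1 in the non-immobilized library. The 5 regions of day 0 alone were all weak, from 86.5% to 97.5%, among them chr1:72856902-72857402, 0.913 kb past the end, at 93.3%. At chr1:72873708-72874254, 0.907 kb inside the start, day 0 (94.2%) and the non-immobilized library (80.9%) held a summit.

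Igfbp7, which encodes a secreted protein that binds IGFs with low affinity, had 10 regions around chr5:77349240-77408045. The strongest was the start region chr5:77407509-77408024, with summits about 0.27 kb inside the gene, at 16.9%, 11.1% and 13.6%. Before the start lay 3 regions, of which 2 were called at day 0, 3 in the immobilized and 0 in the non-immobilized library, all weak at 70.2% to 98.6%. Inside the gene, chr5:77386734-77387370 was called in all 3 at 78.6%, 30.3% and 30.9%. Nearby, chr5:77384099-77384631 was called in both day 7 libraries, at 81.9% immobilized and 38.4% non-immobilized, so that in the reduced lists it belonged to the non-immobilized library alone. As at Irs2, the difference of immobilized minus day 0 changed sign with list length, from -3 in the reduced to 2 in the deposited lists, and at Igf2 it went from -2 to 2.

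Igfbp3, the gene of the main IGF carrier of the circulation, had 5 regions around chr11:7206086-7215498 and none within 1 kb of an end. Its best-ranked region over the libraries, chr11:7237646-7238206, lay 22.4 kb before the start and was called in both day 7 libraries, at 32.5% and 46.8%, and not at day 0. The shared region chr11:7213299-7213988, which covers the RefSeq transcription start inside the annotated gene, ranked at 52.6%, 33.6% and 46.2%. The 3 regions before the start all lie within the lncRNA gene Gm36565.

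Igfbp4, whose product restrains IGFs until it is cleaved by pappalysin, had 5 regions around chr11:99040005-99052655, of which 4 were called at day 0, 4 in the immobilized and all 5 in the non-immobilized library. Its start region chr11:99039691-99040213 ranked at 37.7%, 30.8% and 44.1%, and chr11:99040573-99041488, which covers its RefSeq start, at 35.4%, 35.7% and 35.1%. Inside the gene, chr11:99047109-99047626 was called in both day 7 libraries (28.7% and 38.4%) and its neighbour chr11:99047628-99048165 at day 0 (22.4%) and in the non-immobilized library (44.6%). These 2 windows abut and became 1 region in all 3 libraries when summits were widened by 500 bp. The other 3 Igfbp4 regions were called in every deposited list.

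Just inside the 50 kb limit were a region of Irs2 at 49.2 kb and one of Igf2 at 49.7 kb, the latter called at day 0 (62.8%) and immobilized (80.0%). Just outside were a further Igf2 region at 50.5 kb with the same pattern (65.0% and 81.2%), an Igf1r region of day 0 alone at 51.4 kb (96.2%) and an Igfbp7 region of the non-immobilized library alone at 52.0 kb (23.6%).

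The wider pathway was read from 47 further genes, listed by their roles. They had 209 summits at day 0, 262 in the immobilized and 204 in the non-immobilized library, or 40.4, 38.9 and 42.6 per 10000 of each list. In the reduced lists, day 0 alone held 45 and the non-immobilized library alone 49, with 148 in both (18.6% and 20.2%), and against the immobilized library the counts were 44 and 35 (19.3% and 15.4%). These day 0 shares were close to those of all regions, 19.3% and 18.9%. In the lists as deposited, day 0 alone held 55 and the non-immobilized library alone 47 (21.8% and 18.7%, against 21.9% and 18.5% of all regions). Against the immobilized library the deposited counts were 32 and 77 (11.3% and 27.3%, against 11.7% and 32%). Between the day 7 libraries, the reduced lists gave 33 regions in the immobilized library alone (14.3%, against 18.3%) and 46 in the non-immobilized library alone (20%, against 17.1%). The deposited lists turned this direction, with 81 in the immobilized library alone (29.1%, against 31.8%) and 28 in the non-immobilized one (10.1%, against 7.68%). In the reduced lists, more regions lay in the non-immobilized library alone than at day 0 alone at 14 of the 47 genes, and fewer at 10. The genes named next were chosen after their values were seen. Grb14, which encodes an inhibitor of the insulin receptor, had 5, 3 and 1 summits at day 0, immobilized and non-immobilized, and the IGF2 clearance receptor gene Igf2r had 17, 23 and 13. The adaptor gene Gab1 had 20, 19 and 14, and Pik3r1, the regulatory subunit gene of phosphoinositide 3-kinase, 18, 20 and 15. Foxo1, a transcription factor gene downstream of AKT, went the other way with 6, 12 and 12, whereas its relative Foxo3 had 13, 14 and 9. Ins1 and Igfbp1 had 0 in every library.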

How the data were processed

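Libraries were prepared with Omni-ATAC, per the labels' protocols. According to the submitters' processing notes, reads were handled with bedtools 2.28.0, Bowtie2 2.3.4.1, cutadapt, edgeR 3.26.5, FastQC, MACS2 2.1.2, Picard, SAMtools 1.2 and Trim Galore, on mm10. Read shifting, filters and the peak cutoff were not given in these sources. The deposited lists, called by the authors in each library separately, give 1 bp summits on 19 chromosomes and a score. The authors' score was taken from the file layout to be a −log10 value of p or of q, without a statement of which. It was used only for ranks within a list. Equal scores were ordered by chromosome and position, so their ranks differ. At day 0 a score of 5.2033 ranked at 81.8% near Irs1 and at 83.4% near Irs2. The reduced day 0 list ended within such a tie. An Igf1r summit 41.6 kb before the start, with the lowest kept score of 3.9964, was dropped. The authors' deposited run statistics give counts of reads, the fraction of duplicates and the percent of reads aligned (89.9% to 92.5%).

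Genes came from a RefSeq table of GRCm38.p6, the assembly of mm10. Positions count from 1. Insr has no entry in the promoter table used here, so its start was not used. No genome sequence was used, so exons, introns and the sequences of distal regions were not examined. A region absent from a list had no summit past the authors' cutoff and was not shown to be closed.

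Regions, pathway genes, markers and motifs were handled as the report describes. Named were all 10 members and, of each, the best-ranked region, regions within 1 kb of a gene end, regions of 1 library in the better-ranked 50%, and all one-library regions of the member with the largest difference, Irs2, and 5 genes with a like pattern. Other regions were named after their values were seen. Members and lists were chosen with earlier results of these data known. Scripts were tested on simulated regions. Alternatives were the deposited lists, the 23956 best summits of each, windows of 100 and 500 bp, limits of 10 and 100 kb and the nearest transcription start. Chosen after seeing the data were 3 more for regions: absence from the whole deposited list, leaving out Irs2, and adding regions deep inside the members. Software was matplotlib 3.10.9, numpy 2.4.6, pandas 2.3.3, Python 3.11.15 and scipy 1.17.1.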

Additional observations from a re-analysis of the deposited data

How the results depend on the processing

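No paired analysis was possible because each group has 1 library. The members' day 0 share stayed above that of all regions, against either day 7 library, under every setting run for shares; with the 23956 best summits of each list it was 26.7% against 15.8% (non-immobilized) and 33.3% against 15.7% (immobilized), and within 10 kb 24.2% against 14.8% and 21.2% against 14.9%. The opposite shares, of regions in a day 7 library and not at day 0, did not keep their side. In the reduced lists they lay below all regions (14.7% against 20.8% non-immobilized, 9.38% against 21.6% immobilized). With the 23956 best summits they lay above, at 20% against 17.2% and 20% against 16.6%, on 30 member regions per pair. Under every other setting run for shares they lay below. Counts moved more than 1.5 times as follows. Against the non-immobilized library, the 28 regions of day 0 alone became 8 with the best summits, 8 within 10 kb and 44 within 100 kb, and the 10 non-immobilized ones became 6 and 3 under the first 2 of these. Against the immobilized library, the 23 of day 0 alone became 10, 7 within 10 kb, and 13 when absence was required from the whole deposited list. The 6 immobilized ones became 20 in the deposited lists, 3 within 10 kb and 10 within 100 kb. Between the day 7 libraries, the 8 non-immobilized regions became 4 as deposited, 5 with the best summits, 2 within 10 kb and 4 when absent from the whole list. The 9 immobilized ones became 30, 3, 3 within 10 kb, 18 within 100 kb, and 5 without Irs2. Summits numbered 24, 20 and 22 at day 0, immobilized and non-immobilized with the best summits. Within 10 kb they numbered 32, 35 and 26, within 100 kb 98 at day 0, and in the reduced immobilized list 42. Of differences of 3 or more regions, immobilized minus day 0 reversed in the deposited lists, from -5 to 1 at Irs2 and from -3 to 2 at Igfbp7; their construction keeps the weaker immobilized summits. Among the other alternatives for differences per gene, 22 moved by more than 1.5 times without reversing and 40 did not. The other 53 counts over all members and libraries stayed within 1.5 times.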

Other observations

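Irs2 was compared with all other protein-coding genes by its numbers of regions in the 7 classes of presence, in the reduced lists: 5 in all 3 libraries, 6 at day 0 alone, 1 in the immobilized library alone, 3 at day 0 and immobilized, 1 at day 0 and non-immobilized, 1 in both day 7 libraries and 0 in the non-immobilized library alone. The most similar genes, by the summed absolute difference over the 7 classes, were Abca8b and Pald1 (4 each) and Emp1, Fndc1 and Nfia (5 each). Abca8b had 5 regions in all 3 libraries and 6 at day 0 alone. Pald1 had the same 2 numbers, and 2 in the non-immobilized library alone. The likeness rests on 1 library per group and on small numbers, and the genes were ranked by it, so it is a description.

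Along Igf1r, 3 regions in the middle of the gene were called at day 0 and immobilized and not in the non-immobilized library, as 7 were at Irs2. At chr7:68114967-68115470 day 0 (50.7%) and the immobilized library (65.4%) held a summit, and at chr7:68134998-68135504 likewise (73.3% and 46.9%), with none in the non-immobilized list. In the other direction, chr7:68064565-68065077 was called in both day 7 libraries, at 84.8% and 61.7%, and not at day 0. The same held at chr7:68148419-68148957, at 82.7% immobilized and 89.6% non-immobilized. In Insr, chr8:3209187-3209692 and chr8:3211333-3211862 were called at day 0 (62.6% and 85.7%) and immobilized (74.5% and 71.2%), whereas chr8:3215406-3215906 was called in the non-immobilized library alone, at 47.7%.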
